A study of Rattus norvegicus with 8 samples.

Results

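The macrophage marker genes were 10 genes found by name in the gene annotation of the count tables: Cd68, Lyz2, Csf1r, Adgre1, Cd14, Cd163, Mrc1, Trem2, Gpnmb and Mertk. All 10 were named once among the 32623 genes listed, and all 10 were among the 11682 genes with enough counts to be tested. Their counts ranged from 782 to 1675546 reads per gene and library. RNA was measured in the vein of an arteriovenous fistula (AVF), a surgical connection that makes a vein carry arterial blood. In each of 8 Sprague Dawley rats the epigastric vein had been joined to the femoral artery, and a nanofiber sheet of poly(lactic acid) and poly(lactic-co-glycolic acid) in a bilayer had been wrapped around the outside of the vein. In 4 rats the scaffold carried beta-aminopropionitrile (BAPN), an inhibitor of lysyl oxidase, the enzyme that crosslinks collagen and elastin, and in the other 4 rats it carried vehicle only. All rats were killed at day 21; BAPN 1, 2 and 3 and Vehicle 1 and 2 were female, and BAPN 4 and Vehicle 3 and 4 were male. Every group therefore carried both the fistula and a polymer scaffold, and veins without a fistula or without a scaffold were not analysed here.

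Macrophages are phagocytes that either live in a tissue for long periods or arise from blood monocytes that enter it after injury. Perivascular resident macrophages are known for scavenger receptors such as CD163, which takes up haemoglobin bound to haptoglobin, and the mannose receptor MRC1. Macrophages that take up lipid and cell debris, as in foam cells and around implanted polymer, are known for TREM2, a lipid-sensing surface receptor, and GPNMB, a transmembrane glycoprotein of phagocytic cells. CD68, LYZ2, CSF1R and ADGRE1 are read as general markers of the lineage.

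The libraries held 45039451 to 52241007 counts with BAPN and 19548203 to 22442050 with vehicle, so the least deep BAPN library was 2.01 times as deep as the deepest vehicle library, and depth and treatment cannot be told apart. Levels are given as CPM (counts per 1000000 counts of the library) scaled by the trimmed mean of M values (TMM). They are not divided by gene length, so levels are compared between rats and not between genes. The tissue was bulk vein, in which fewer macrophages and less marker RNA per macrophage cannot be told apart. The labelled tissue was checked by smooth muscle and endothelial markers, of which 7 of 7 and 5 of 6 were detected well enough to test, with Pecam1 not analysed here.

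None of the 10 macrophage markers passed the test between BAPN and Vehicle at a false discovery rate (FDR) of 0.05, where edgeR's quasi-likelihood test called 16.8% of all genes tested, 7.5% higher and 9.25% lower with BAPN. At an unadjusted p under 0.05 there were 3 markers, Lyz2, Cd14 and Mertk, where 35.8% of all genes tested lay under that value. DESeq2 called the same 3 markers higher with BAPN, where it called 27.4% of all genes tested, 12.3% in the higher direction. The fitted log2 fold change was above 0 for 9 markers and below 0 for Cd163, with a median of 0.54 over the markers against 0.02 over all genes tested. That median was 0.33 without Vehicle 4, 0.34 without BAPN 4, 0.78 without Vehicle 2 and 0.10 among females alone. The groups did not overlap for Lyz2 and Mertk, with every BAPN rat above every Vehicle rat as in 12.7% of all genes tested (24.7% in either direction), and they overlapped for the other 8 markers.

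**Figure D1:**
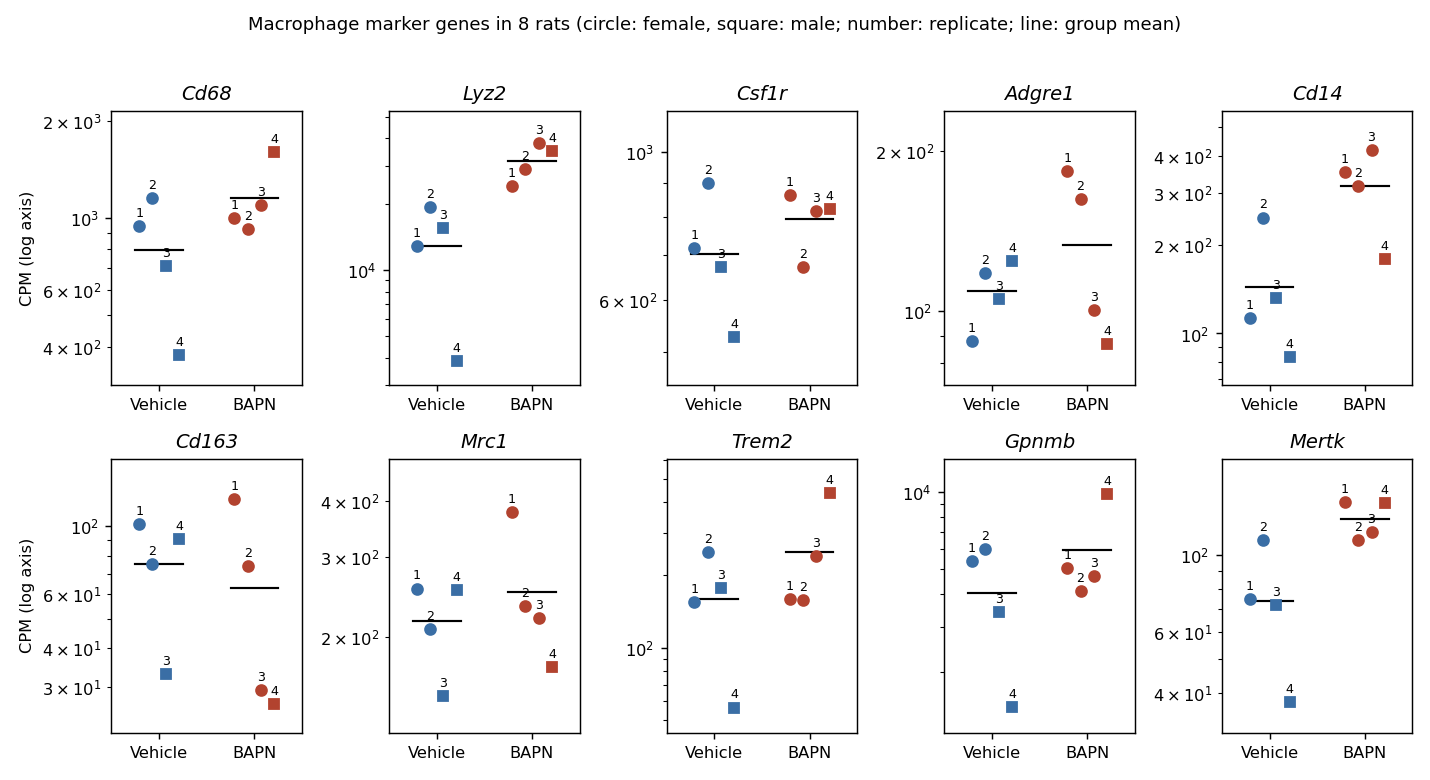
CPM (TMM-scaled, log axis) of each of the 10 macrophage marker genes in each of the 4 BAPN and 4 Vehicle rats, with the sex of each rat marked and a line at each group's mean. The 2 groups are apart for Lyz2 and Mertk, and Vehicle 4 is the lowest Vehicle rat for 7 of the 10 genes.

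Lyz2 (ENSRNOG00000005825), which encodes lysozyme M, an enzyme that breaks bacterial cell walls, was the gene with the most counts in 5 of the 8 libraries, all 4 with BAPN and Vehicle 2. It held 2.47%, 2.92%, 3.66% and 3.21% of all counts across BAPN 1 to 4, and for Vehicle 1 to 4 the shares were 1.31%, 2.02%, 1.66% and 0.369%. Its levels were 24109, 29087, 38028 and 34973 CPM under BAPN and 12845, 19483, 15641 and 3861 CPM under vehicle. All BAPN rats lay above all Vehicle rats, and Vehicle 4 lay far below the other Vehicle rats. The means were 31549 ± 6195 and 12958 ± 6647 CPM (SD, n = 4 each). The log2 fold change was 1.28 (SE 0.49, 95% interval 0.39 to 2.59), and its adjusted p by edgeR was 0.0722. Here and below, printed fold changes are edgeR's, while SEs and intervals belong to limma-voom's own fold change, which was 1.49 for Lyz2. With 1 rat left out at a time, the edgeR fold change lay between 0.98 and 1.55. Its adjusted p lay between 0.0521 and 0.155, so that Lyz2 passed in none of these fits. DESeq2 gave a log2 fold change of 1.27 with an adjusted p of 0.00765.

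Cd14 (ENSRNOG00000017819) encodes the co-receptor that hands bacterial lipopolysaccharide to TLR4. It was measured at 353, 316, 419 and 179 CPM across BAPN 1 to 4, and Vehicle 1 to 4 gave 113, 247, 132 and 83.3 CPM. BAPN 4 was below Vehicle 2, and all other BAPN rats were above all Vehicle rats. The means were 317 ± 101 and 144 ± 71.8 CPM, and the log2 fold change of 1.14 (SE 0.37, 95% interval 0.36 to 2.03) missed the threshold, with an adjusted p of 0.0554 by edgeR and of 0.00872 by DESeq2. Either of 2 rats decided the edgeR call: the adjusted p was 0.0484 without BAPN 4 and 0.0157 without Vehicle 2.

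Mertk (ENSRNOG00000017319) encodes a receptor tyrosine kinase that lets macrophages engulf dying cells. Its levels were 142, 110.8, 116 and 141 CPM under BAPN and 74.7, 110.5, 71.8 and 37.6 CPM under vehicle. The groups did not overlap, although BAPN 2 and Vehicle 2 were almost equal. The means were 128 ± 16.4 and 73.6 ± 29.8 CPM, with a log2 fold change of 0.79 (SE 0.29, 95% interval 0.24 to 1.54). The adjusted p was 0.0699 by edgeR, 0.0227 by edgeR without Vehicle 2, and 0.0278 by DESeq2.

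The other 3 general markers had smaller log2 fold changes, with 95% intervals that included 0 and groups that overlapped. Cd68 (ENSRNOG00000037563), a lysosomal membrane glycoprotein, was at 1003, 922, 1095 and 1596 CPM under BAPN and 941, 1150, 710 and 376 CPM under vehicle. Its log2 fold change was 0.54 (SE 0.36, 95% interval -0.19 to 1.43, adjusted p = 0.261 by edgeR). BAPN 4 was the highest and Vehicle 4 the lowest of the 8 rats. Csf1r (ENSRNOG00000018414), the receptor for the growth factors CSF1 and IL34 on which most macrophages depend, varied least among the BAPN rats. It was at 861, 671, 815 and 822 CPM under BAPN and 718, 899, 671 and 527 CPM under vehicle. The log2 fold change was 0.17 (SE 0.19, 95% interval -0.23 to 0.61, adjusted p = 0.526 by edgeR). Vehicle 2 was above all BAPN rats. Adgre1 (ENSRNOG00000046254), the adhesion receptor known as F4/80 in the mouse, was at 183, 163, 100.5 and 86.7 CPM under BAPN and 87.8, 118, 106 and 124 CPM under vehicle. Its log2 fold change was 0.29 (SE 0.23, 95% interval -0.30 to 0.75, adjusted p = 0.405 by edgeR), with BAPN 1 and 2 above and BAPN 4 below all Vehicle rats.

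**Figure D2:**
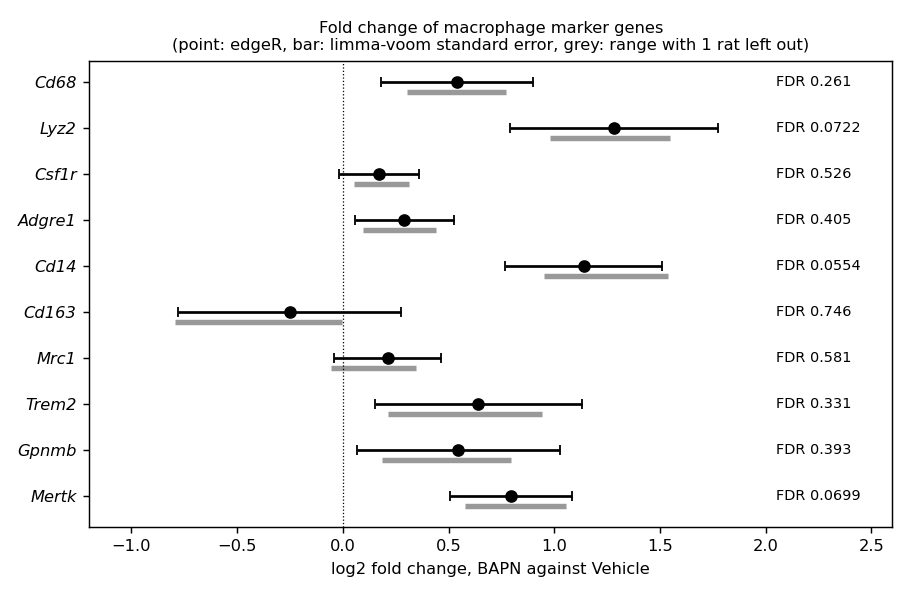
Log2 fold change (BAPN against Vehicle, horizontal axis) of the 10 macrophage marker genes from edgeR, with 1 limma-voom standard error to each side as a black bar, the range of the fits leaving out 1 rat each as a grey bar, and the adjusted p (FDR) at the right. Lyz2, Cd14 and Mertk lie farthest above 0, at 1.28, 1.14 and 0.79, and Cd163 alone lies below 0, at -0.25.

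The resident markers Cd163 and Mrc1 were then set beside Trem2 and Gpnmb. The promoters of these 4 genes are printed to show which letters lie before the start of each. They are the 250 bases before the start given by RefSeq for the rat build GRCr8, read 5′ to 3′ on the gene's own strand. The build of the counts is not given in the sources used here. Capitals mark GAGGAA or its reverse complement TTCCTC, the core letters bound by ETS factors such as the macrophage factor encoded by Spi1, and TCATGTG or CACATGA, the M-box letters bound by the MITF and TFE family. Trem2 lies at chr9:20151780-20152029 on the minus strand, Gpnmb at chr4:79340878-79341127, Cd163 at chr4:158770524-158770773 and Mrc1 at chr17:82157475-82157724, all 3 on the plus strand.
Trem2: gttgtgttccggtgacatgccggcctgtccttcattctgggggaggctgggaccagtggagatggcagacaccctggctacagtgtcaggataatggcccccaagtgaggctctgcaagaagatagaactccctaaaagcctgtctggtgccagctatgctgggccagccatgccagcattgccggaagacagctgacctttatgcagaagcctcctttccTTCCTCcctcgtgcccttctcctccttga
Gpnmb: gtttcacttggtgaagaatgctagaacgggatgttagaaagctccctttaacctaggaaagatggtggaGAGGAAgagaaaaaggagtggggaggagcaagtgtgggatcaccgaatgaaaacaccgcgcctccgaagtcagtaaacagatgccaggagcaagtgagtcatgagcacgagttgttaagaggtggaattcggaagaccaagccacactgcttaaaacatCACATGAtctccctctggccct
Cd163: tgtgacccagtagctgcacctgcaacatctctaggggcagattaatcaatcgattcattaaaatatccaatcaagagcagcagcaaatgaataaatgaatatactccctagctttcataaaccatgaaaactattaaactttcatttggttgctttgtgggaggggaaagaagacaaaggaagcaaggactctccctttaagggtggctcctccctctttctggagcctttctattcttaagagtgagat
Mrc1: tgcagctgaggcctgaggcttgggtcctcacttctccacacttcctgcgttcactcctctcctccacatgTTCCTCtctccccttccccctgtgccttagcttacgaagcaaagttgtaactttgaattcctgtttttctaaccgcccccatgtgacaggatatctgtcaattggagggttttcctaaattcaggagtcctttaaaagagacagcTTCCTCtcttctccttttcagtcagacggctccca
The letters GAGGAA or TTCCTC stood in 8 of the 10 markers' promoters, all but Cd163 and Mertk, and in 23.3% of 33469 promoters of the same length. The longer GAGGAAGT or ACTTCCTC, which contains the shorter letters, stood in 0 of the 10 and in 2.04% of all promoters. The M-box letters stood in Gpnmb alone among the 10 and in 3.07% of all promoters. CACGTG, another motif of the same family, stood in 0 of the 10 and in 5.59% of all promoters, and TTGCGCAA, the letters bound by C/EBP factors, in 0 of the 10 and in 0.14%. A match describes the letters and is not a binding site.

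Cd163 (ENSRNOG00000010253) was the only macrophage marker with a fitted log2 fold change below 0. It was at 123, 74.1, 29.3 and 26.4 CPM across BAPN 1 to 4, and Vehicle 1 to 4 gave 102, 75.5, 32.9 and 90.5 CPM. Both groups spanned most of the range of the 8 rats. The means were 63.1 ± 45.3 and 75.1 ± 30.1 CPM, and the log2 fold change of -0.25 (SE 0.53, 95% interval -1.60 to 0.76, adjusted p = 0.746 by edgeR) was well within the spread. It was -0.80 without BAPN 1 and -0.0032 without BAPN 4. Mrc1 (ENSRNOG00000018251) was at 378, 235, 220.3 and 172 CPM under BAPN and 256, 209, 148 and 254.1 CPM under vehicle. Its log2 fold change was 0.21 (SE 0.25, 95% interval -0.39 to 0.75, adjusted p = 0.581 by edgeR) and became -0.054 without BAPN 1. The order of the rats was the same for Cd163 and Mrc1 in both groups, BAPN 1, 2, 3 and 4 and Vehicle 1, 4, 2 and 3 from high to low.

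Trem2 (ENSRNOG00000013578) was at 159, 158, 241 and 438 CPM under BAPN and 155, 250.1, 177 and 56.5 CPM under vehicle. BAPN 4 was the highest and Vehicle 4 the lowest rat, and the other 6 lay between 155 and 250.1 CPM. The log2 fold change was 0.64 (SE 0.49, 95% interval -0.40 to 1.80, adjusted p = 0.331 by edgeR), and it was 0.21 without BAPN 4. Gpnmb (ENSRNOG00000008816) was at 5075, 4131, 4732 and 9781 CPM under BAPN and 5370.1, 5981, 3425 and 1470.2 CPM under vehicle. The same 2 rats were at the ends, and BAPN 1, 2 and 3 lay below Vehicle 1 and 2. Its log2 fold change was 0.55 (SE 0.48, 95% interval -0.43 to 1.72, adjusted p = 0.393 by edgeR), and it was 0.19 without BAPN 4.

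For each rat the mean log2 CPM of Cd163 and Mrc1 was subtracted from that of Trem2 and Gpnmb. This log2 ratio took the values 2.06, 2.61, 3.73 and 4.94 across BAPN 1 to 4, and Vehicle 1 to 4 gave 2.50, 3.28, 3.48 and 0.93. BAPN 4 had the highest and Vehicle 4 the lowest ratio, and the groups overlapped. The means were 3.34 ± 1.28 and 2.55 ± 1.16 (SD, n = 4 each), a difference of 0.79 that was smaller than either SD. It was given no test because the genes were picked with results of these data known. The difference was 0.26 without BAPN 4, 0.25 without Vehicle 4 and 1.22 without BAPN 1. Among females alone the means were 2.80 with BAPN and 2.89 with vehicle, a difference of -0.09. Taken gene by gene, the log2 ratio of Trem2 to Cd163 averaged 2.14 ± 1.70 against 1.02 ± 1.36 and that of Gpnmb to Mrc1 4.54 ± 0.91 against 4.07 ± 1.04.

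**Figure D3:**
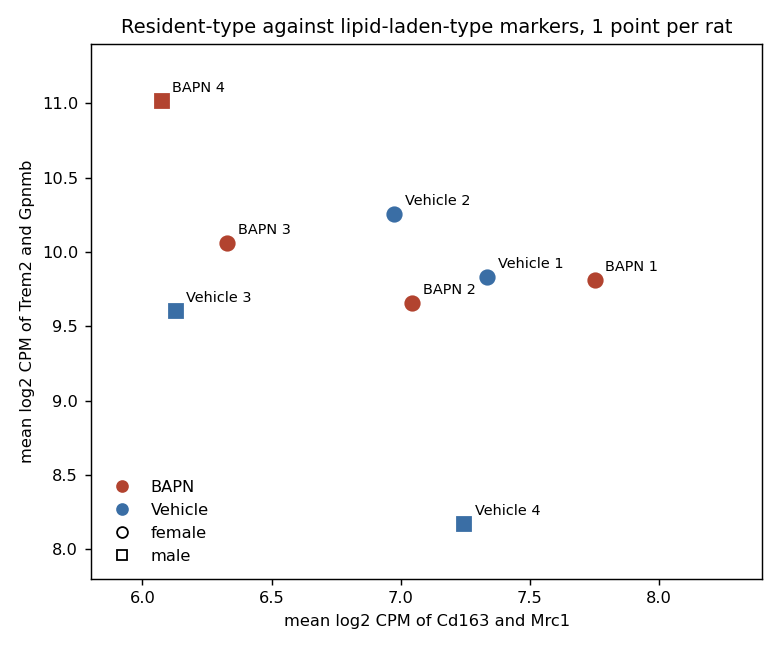
Mean log2 CPM of Trem2 and Gpnmb (vertical axis) against that of Cd163 and Mrc1 (horizontal axis) in each of the 8 rats, coloured by treatment (red BAPN, blue Vehicle) and shaped by sex. The log2 ratio, the vertical minus the horizontal value, runs from 2.06 to 4.94 in BAPN rats and from 0.93 to 3.48 in Vehicle rats, so the groups overlap.

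How the markers varied together among rats of 1 treatment was described for Cd68, Trem2 and Cd163. With each gene's log2 CPM centred within its group, Pearson's r over the 8 rats was 0.987 between Cd68 and Gpnmb, 0.939 between Cd68 and Trem2, 0.917 between Trem2 and Gpnmb and 0.926 between Cd163 and Mrc1. Cd68 had an r of 0.909 with Mertk, 0.866 with Lyz2, 0.861 with Csf1r and 0.345 with Cd14, and Trem2 gave 0.820, 0.878, 0.766 and 0.261 with the same genes. The general marker Adgre1 had an r of -0.502 with Cd68 and -0.620 with Trem2, and Mrc1 one of -0.340 and -0.616. With Cd163, Adgre1 had an r of 0.730, Cd68 -0.279, Gpnmb -0.238 and Trem2 -0.575. These correlations describe 8 libraries that share depth, composition and rat with both genes, and carry no test. BAPN 4 was the highest BAPN rat for Cd68, Trem2 and Gpnmb and the lowest for Adgre1, Cd14, Cd163 and Mrc1, and BAPN 1 was the highest for Csf1r, Adgre1, Cd163, Mrc1 and Mertk. Vehicle 2 was the highest Vehicle rat for 7 markers and Vehicle 4 the lowest for 7. Over all genes tested, Vehicle 4 was the lowest for 28.5%, and the share with Vehicle 2 highest was not counted. Within a group the highest rat had 1.28 to 4.65 times the level of the lowest with BAPN and 1.42 to 5.05 times with vehicle, depending on the marker. The genes most like these were sought among tested genes with a symbol, without the markers and without names starting with codes such as LOC or RGD. Cd68 was most like Ptpre (r 0.997, Spearman's rho 1), Hk3 (r 0.995, rho 0.929) and Mmp12 (r 0.994, rho 1), the last encoding macrophage elastase. Trem2 was most like Slc2a6 (r 0.997, rho 0.976), Blnk (r 0.992, rho 1) and Atf3 (r 0.992, rho 0.952). Cd163 was most like Erbb2 (r 0.989, rho 0.905), Myo7a (r 0.981, rho 0.881) and Smarcc1 (r 0.978, rho 0.857).

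Sex was unevenly split between the groups, with 3 females of 4 rats in BAPN and 2 of 4 in Vehicle. For Lyz2, Cd14 and Mertk the BAPN rats were above the Vehicle rats within females and within males. For Lyz2 and Mertk this follows from the lack of overlap over all rats, and in males it sets 1 BAPN rat against 2. The share of all genes tested with such a split was not counted. For Gpnmb the 3 BAPN females, at 4131 to 5075 CPM, lay below both Vehicle females, while the BAPN male, at 9781 CPM, lay above both Vehicle males. In an edgeR fit with a sex by treatment interaction, chosen after the data were seen, the male effect exceeded the female effect by 2.29 on the log2 scale for Gpnmb (adjusted p = 0.252), by 1.61 for Cd68 (adjusted p = 0.269) and by 2.03 for Trem2 (adjusted p = 0.350). These 3 markers had an unadjusted interaction p under 0.05, as did 12.3% of all genes tested, and no gene passed at an FDR of 0.05. Only 1 BAPN rat was male, so the sex of that rat and the rat itself cannot be told apart.

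The other genes of the same pathways were counted from 10 lists holding 145 genes, of which 121 were tested. Of these, 19 were called by edgeR, 10 higher and 9 lower with BAPN, which is 15.7% against 16.8% of all genes tested. Their median log2 fold change was 0.31, and 0.0096 among females alone. In fits that left out 1 rat each, 4 of the 19 (Ctss, Stab1, Nr4a1 and Il34) stayed called in all 8 fits and 15 lost the call in at least 1. The lists together had 4 called genes without Vehicle 1 and 26 without Vehicle 2, as the number of all genes called went to 397 and 2215.

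Other genes of monocytes and macrophages in general gave 17 tested genes, all with a fitted log2 fold change above 0 and 4 of them called higher, with a median of 0.60 (0.57 to 0.87 with 1 rat left out, 0.41 among females alone). Cx3cr1 turned below 0 without BAPN 1 (-0.11), Vehicle 1 (-0.0023) or Vehicle 3 (-0.00073), and Cx3cr1, Itgam and Cybb among females alone (-0.037, -0.048 and -0.11). Ctss, the lysosomal protease cathepsin S, rose from 285 ± 65.8 to 581 ± 43.0 CPM (log2 fold change 1.03, SE 0.19, adjusted p = 0.0122 by edgeR). Aif1, the cytoskeletal protein IBA1, rose from 68.1 ± 13.4 to 118 ± 13.2 CPM (adjusted p = 0.0155 by edgeR, 0.0525 without Vehicle 1). Cd53, a tetraspanin of leukocytes, and Fcgr1a, the high-affinity receptor for immunoglobulin G, rose by 1.06 and 0.80 on the log2 scale, with adjusted p of 0.0376 and 0.0474 by edgeR. Leaving out 1 rat moved these fold changes between 0.84 and 1.30 for Cd53 and between 0.64 and 1.04 for Fcgr1a. Cd53 stayed called in 2 and Fcgr1a in 1 of these 8 fits, with the largest adjusted p by edgeR being 0.0937 without BAPN 3 and 0.113 without Vehicle 1. The gene of this list with the most counts, Cybb, which encodes the catalytic subunit of the phagocyte NADPH oxidase, had a log2 fold change of 0.57 (SE 0.43, adjusted p = 0.318 by edgeR).

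Among other genes of resident macrophages, 13 of 22 were tested, 6 with a fold change above 0 and 7 below, with a median of -0.02 (-0.11 to 0.19 with 1 rat left out, -0.28 among females alone). Stab1, a scavenger receptor of resident macrophages that is also made by some endothelium, fell by 1.36 on the log2 scale (SE 0.24, adjusted p = 0.0127 by edgeR). It was at 79.7, 64.6, 43.4 and 41.2 CPM under BAPN and at 190, 112, 133 and 154 CPM under vehicle, and the groups did not overlap. Maf, a transcription factor, fell by 0.69 (SE 0.21, adjusted p = 0.04995 by edgeR), just within the threshold, and it lost the call in 6 of the 8 fits leaving out a rat, with an adjusted p of 0.128 by edgeR without Vehicle 1. Of the endothelial markers, 5 of 5 tested had a log2 fold change below 0 and 3 were called lower, and their summed level was 214 to 391 CPM under BAPN and 512 to 1220 CPM under vehicle. Their part in the result for Stab1 and Maf was not tested. The folate receptor gene Folr2 had a log2 fold change of 0.65 (SE 0.26, adjusted p = 0.0892 by edgeR), the hyaluronan receptor gene Lyve1 one of 0.14 (SE 0.21, adjusted p = 0.671) and Selenop, which encodes selenoprotein P, one of -0.62 (SE 0.19, adjusted p = 0.0567).

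Other genes of lipid-laden macrophages gave 21 tested genes, 19 with a fold change above 0, with a median of 0.52. The median was 0.37 without Vehicle 4, 0.30 without BAPN 4 and -0.01 among females alone. BAPN 4 was the highest BAPN rat for 19 of the 21 and Vehicle 4 the lowest Vehicle rat for 18, as they were for 25.8% and 28.5% of all genes tested. Fabp5, a fatty acid carrier, rose from 211 ± 91.0 to 463 ± 130 CPM (log2 fold change 1.14, SE 0.39, adjusted p = 0.0495 by edgeR), a call kept in 1 of the 8 fits leaving out a rat and at 0.113 without BAPN 4. Abca1, the pump that exports cholesterol, fell from 202 ± 21.4 to 128 ± 29.5 CPM (adjusted p = 0.0306 by edgeR, 0.0827 without BAPN 3). Spp1, which encodes osteopontin, was at 10613 ± 3365 CPM under BAPN and 5089.6 ± 2859 CPM under vehicle (log2 fold change 1.06, SE 0.52, adjusted p = 0.126 by edgeR), and Apoe, the lipid carrier of apolipoprotein E, had a log2 fold change of 0.40 (SE 0.20, adjusted p = 0.204).

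Genes of newly recruited monocytes gave 10 tested genes, 2 called higher and 2 lower, with a median of 0.46. The median was 0.23 without BAPN 1, 0.73 without Vehicle 4 and 1.12 among females alone. Plac8 rose by 0.87 on the log2 scale (SE 0.21, adjusted p = 0.0246 by edgeR) and Fcgr3a, a low-affinity receptor for immunoglobulin G, by 1.06 (SE 0.30, adjusted p = 0.0362). Without Vehicle 1 the adjusted p values were 0.0708 and 0.0927. Nr4a1, the nuclear receptor on which patrolling monocytes depend, fell from 58.9 ± 19.5 to 24.1 ± 5.03 CPM (log2 fold change -1.29, SE 0.24, adjusted p = 0.0148 by edgeR). Ace, the angiotensin-converting enzyme, which endothelium also makes, fell by 1.11 (SE 0.31, adjusted p = 0.0423, and 0.111 without BAPN 3). The gene of this list with the most counts, Vcan, which encodes the matrix proteoglycan versican, had a log2 fold change of 0.46 (SE 0.43, adjusted p = 0.448).

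Around CSF1R, Il34 fell from 35.7 ± 4.80 to 21.6 ± 3.10 CPM (log2 fold change -0.73, SE 0.14, adjusted p = 0.0166 by edgeR), whereas the other ligand, Csf1, was at 184 ± 23.2 CPM under BAPN and 196 ± 55.9 CPM under vehicle (log2 fold change -0.09, SE 0.22, adjusted p = 0.767). The transcription factor gene Cebpb fell by 0.56 (SE 0.15, adjusted p = 0.0347 by edgeR, and 0.0768 without BAPN 4). These were the 2 called genes of 9 tested, and the median was -0.04 (-0.16 to 0.21 with 1 rat left out, -0.29 among females alone). The receptor gene Csf2ra had a log2 fold change of 0.11 (adjusted p = 0.804). Around CD14, 1 of 10 tested genes was called: Ticam2, an adaptor of TLR4, rose by 0.55 (SE 0.17, adjusted p = 0.0489 by edgeR, and 0.121 without Vehicle 1). Tlr4 had a log2 fold change of -0.11 (SE 0.15, adjusted p = 0.616), and Lbp, the binding protein that loads lipopolysaccharide onto CD14, one of 1.05 (SE 0.38, adjusted p = 0.0987). BAPN 1, at 479 CPM for Lbp, stood above the other BAPN rats at 142 to 206 CPM, and the log2 fold change was 0.50 without it. Ly96 was not analysed here.

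Around TREM2, 12 genes were tested, with a median log2 fold change of 0.35 (0.26 to 0.42 with 1 rat left out, 0.18 among females alone). Tyrobp, the adaptor that carries the signal of TREM2, was at 392 ± 94.7 CPM under BAPN and 246 ± 105 CPM under vehicle (log2 fold change 0.67, SE 0.33, adjusted p = 0.148 by edgeR). Trem1, a receptor that uses the same adaptor, was the 1 called gene and rose from 13.05 ± 6.19 to 30.7 ± 5.13 CPM (log2 fold change 1.23, SE 0.28, adjusted p = 0.0276 by edgeR, and 0.0773 without Vehicle 1).

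All 13 tested genes around MERTK had a log2 fold change below 0, with a median of -0.55 (-0.66 to -0.45 with 1 rat left out, -0.47 among females alone), while Mertk itself was at 0.79. Among the alternatives, signs turned for Pros1, to 0.0082 without Vehicle 4 and 0.062 among females alone, and for Elmo1, an adaptor of engulfment, from -0.056 to 0.041 without BAPN 3. Itgb5, an integrin subunit, fell from 325 ± 43.7 to 207 ± 29.2 CPM (log2 fold change -0.65, SE 0.15, adjusted p = 0.0242 by edgeR, and 0.0644 without Vehicle 1). Stab1, given above, was the other called gene. The MERTK relative Axl was at 341 ± 60.8 and 499 ± 73.4 CPM with no overlap between the groups (log2 fold change -0.55, SE 0.16, adjusted p = 0.0536). The shared ligands Gas6 and Pros1 had log2 fold changes of -0.54 (SE 0.21, adjusted p = 0.0883) and -0.22 (SE 0.25, adjusted p = 0.539). Most of these genes are also made by stromal cells. Of 7 smooth muscle markers all had log2 fold changes below 0 and 5 were called lower, and of 6 fibroblast markers 5 were below 0 and none was called by edgeR. Their part in the values around MERTK was not tested.

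Around CD163 and MRC1, 9 genes were tested, with a median log2 fold change of 0.01. Hmox1, the enzyme that breaks down haem, was at 222 ± 38.6 and 136 ± 36.9 CPM with no overlap between the groups (log2 fold change 0.70, SE 0.23, adjusted p = 0.0536 by edgeR). The ferritin light chain gene Ftl1 rose by 1.44 (SE 0.35, adjusted p = 0.0161, and 0.0525 without Vehicle 1), a value that is uncertain because near-identical ferritin copies can share its reads. Cd47, the surface protein that restrains engulfment, fell by 0.39 (SE 0.11, adjusted p = 0.0431) and was called in none of the fits leaving out a rat, where the largest adjusted p was 0.116 without Vehicle 1. The heavy chain gene Fth1 had a log2 fold change of 0.86 (SE 0.40, adjusted p = 0.112). Of 11 tested genes of osteoclasts and giant cells, 0 were called by edgeR (3 at an unadjusted p under 0.05, and 3 called by DESeq2), with a median of 0.41 that was 0.20 without BAPN 4, 0.22 without Vehicle 4, 0.65 without Vehicle 2 and -0.12 among females alone. The one with the most counts, Ctsk, which encodes the collagen-cutting protease cathepsin K, had a log2 fold change of 0.94 (SE 0.33, adjusted p = 0.0868). Dcstamp, which giant cells need to fuse, and Marco, a scavenger receptor, had 0 counts in every library. This allows levels up to 0.0592 to 0.148 CPM (3 counts of each library's scaled total, counting error only). Whether the counting missed reads of Dcstamp or Marco was not tested. Ocstamp, of the same giant cell list, was at 42.3 ± 16.2 CPM under BAPN and 46.0 ± 25.6 CPM under vehicle. Its log2 fold change was -0.12 (SE 0.46, adjusted p = 0.865 by edgeR).

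**Figure D4:**
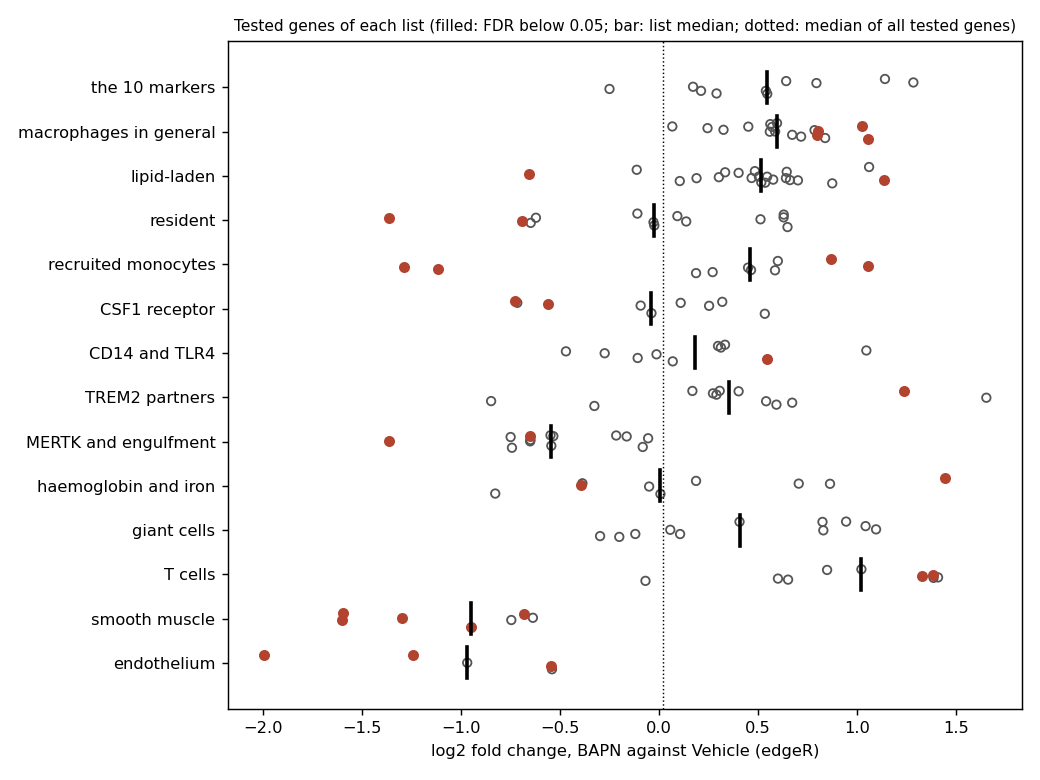
Log2 fold change (BAPN against Vehicle, horizontal axis) of every tested gene in the macrophage lists and in the T cell, smooth muscle and endothelial lists (rows), with called genes filled, each list's median as a bar and the median of all genes tested as a dotted line. The median is 0.60 for general macrophage genes, -0.55 for genes around MERTK, -0.95 for smooth muscle and -0.97 for endothelium.

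Markers of other cell types that a vein can hold were counted in the same fit. Of 7 smooth muscle markers, 5 were called lower, among them the contractile genes Myh11 (log2 fold change -1.60), Lmod1 (-1.30), Smtn (-0.95) and Des (-0.68), and their summed level was 1661 to 4219 CPM under BAPN and 3211 to 5965 CPM under vehicle. Of these, Smtn stayed called in 4 and Des in 3 of the 8 fits leaving out a rat, with the largest adjusted p by edgeR being 0.0699 without BAPN 3 and 0.0681 without BAPN 4. The median was -0.95 for smooth muscle markers (-1.28 to -0.78 with 1 rat left out, -0.50 among females alone) and -0.97 for endothelial markers (-1.19 to -0.68, and -0.49 among females alone). The endothelial genes Tek, Vwf and Cldn5 fell, with log2 fold changes of -1.24, -1.99 and -0.55. Tek stayed called in all 8 fits, Vwf in 3 and Cldn5 in 2. Vehicle 1, at 768 CPM, stood above the other Vehicle rats for Vwf, whose log2 fold change was -1.13 without it, and Cldn5 overlapped between the groups and had an adjusted p of 0.127 without Vehicle 1. The adipocyte gene Plin1, the called one of 4 tested, had a log2 fold change of -2.13, but its groups overlapped, with Vehicle 4 at 4.54 CPM the lowest of the 8 rats. It stayed called in 1 of the 8 fits, with an adjusted p of 0.118 by edgeR without Vehicle 1. Of 9 T cell markers, Cd2 and Cd8a rose by 1.38 and 1.33 (Cd2 in all 8 fits, Cd8a in 4, with an adjusted p of 0.0719 without BAPN 3), and Cd4, which rat macrophages also make, had a log2 fold change of -0.07. The B lineage genes Cd79b and Mzb1, of 3 tested, were called higher, with log2 fold changes of 2.55 and 4.59, but the groups overlapped for both. Mzb1 was at 15.1, 27.8, 41.5 and 0.167 CPM in the BAPN rats, BAPN 4 being the lowest of the 8 rats, and Cd79b was at 0.730 CPM in BAPN 4, below Vehicle 1. Cd79b stayed called in 2 and Mzb1 in 1 of the 8 fits leaving out a rat, with adjusted p of 0.112 and 0.0915 by edgeR without Vehicle 1. Without Vehicle 3 their log2 fold changes were 3.23 and 5.22. Of 8 dendritic cell markers 6 had a log2 fold change above 0 and 2 below, with a median of 0.43 (0.21 without Vehicle 4, 0.26 without BAPN 3), and the 1 called gene, Zbtb46, fell by 0.80 (adjusted p = 0.0161 by edgeR, and 0.0525 without Vehicle 1). None of the 2 tested neutrophil, 3 mast cell and 6 fibroblast markers was called by edgeR. At an unadjusted p under 0.05 there were 0, 1 and 3 of them, and DESeq2 called 0, 1 and 3. The summed level of the 10 macrophage markers, in which Lyz2 is the main term, was 32386 to 48214 CPM under BAPN and 6880 to 28525 CPM under vehicle. Since CPM share a fixed total, the values of these lists and of the macrophage markers are relative to each other, and the part of one in the other was not tested.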

How the data were processed

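RNA of 8 rat veins (4 BAPN, 4 Vehicle) was read as stranded total RNA. Per the labels, the authors used bcl2fastq 2.17, Trim Galore and STAR, and deposited raw counts per gene for each rat. The counter, its strand setting and the genome build are not given in the sources used here. Groups came from the labels. Libraries of a group carry separate numbers in the labels and are taken as separate rats, and p-values measure the spread between these rats.

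From these counts, genes with a base mean under 100 were left out, as the study did, which kept 11682 of 32623 genes and 99.5% to 99.7% of counts. edgeR 4.0.16 (R 4.3.3, TMM scaling, quasi-likelihood F test, two-sided, treatment as the sole term) gave fold changes and Benjamini-Hochberg adjusted p-values over all genes tested, and limma 3.58.1 (voom) gave standard errors and 95% intervals. A gene was called at an FDR under 0.05. DESeq2 1.42.0 was an alternative, with other scalings, filters, priors, sex as a covariate, females alone, a replicate block, libraries thinned to 19548203 counts, and each rat left out. On simulated counts for this comparison with 11682 genes, 167 of 200 genes changed by 1.5 on the log2 scale were recovered, with 6 false calls. The fitted log2 fold changes of the markers were all smaller, the largest being 1.28 for Lyz2. The simulation therefore does not tell how often changes of their size would be called. No replicate pair agreed within sampling noise (chi-square per degree of freedom 68.6 to 320.8).

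The markers, the other gene lists and the motifs were chosen with earlier results of these data known. Beside the 10 markers, genes were chosen by rule: of each other list the called genes (at most the 4 with the smallest FDR), the tested gene with the highest mean CPM, and fixed partners of the markers. Of the genes so chosen, Tagln, Col3a1, Jchain, Adipoq and Cd83 are not given separately above. A few genes outside the rule are given where they bear on a list. Promoters came from RefSeq (GRCr8), in which all 10 markers matched by symbol.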

Additional observations from a re-analysis of the deposited data

Results flagged for a closer look

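Gpnmb in BAPN 4, at 9781 CPM, stood apart from the other BAPN rats at 4131 to 5075 CPM: its gap to the nearest rat was 0.833 of the group's whole range, against Dixon's critical value of 0.829 for 4 samples. It was the 1 such result among 22 groups checked, and chance marks about 1 in 20.

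Gpnmb also had opposite directions in the sexes. All 3 BAPN females were below both Vehicle females, and the BAPN male was above both Vehicle males. The male minus female difference of the effect was 2.29 on the log2 scale by an edgeR interaction term (adjusted p = 0.252 over all genes tested), in a fit chosen after the data were seen. It did not pass the threshold, and it rests on the same rat, BAPN 4.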

How the results depend on the processing

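The macrophage markers called numbered 0 with the other scalings, both filters, limma-voom, sex as a covariate, females alone and the thinned libraries, 3 with DESeq2, and 0 to 2 when 1 rat was left out. All genes called numbered 3202 with DESeq2, 930 with sex as a covariate, 89 among females alone and 397 to 2215 when 1 rat was left out. Called genes of the companion lists numbered 44, 8, 2 and 4 to 26 in the same order. The labels give both groups numbers 1 to 4. Same-number correlations of deviations were 0.0944, -0.265, 0.269 and -0.140, where the other pairs ran from -0.349 to 0.357. No pairing by number was seen, but so few correlations cannot exclude one. With a replicate block 0 markers, 556 of all genes and 5 companion genes were called. Kit, the mast cell and growth factor receptor gene, had a log2 fold change of -0.0063 with the block. The difference in the lipid-laden to resident log2 ratio was 0.79 over all rats. It was 0.25 to 1.22 when 1 rat was left out, and its sign reversed among females alone (-0.09). Every alternative moved it by less than 1 SD, but the SD is larger than the difference itself. A difference that vanished would also move by less than 1 SD, so this does not show that it is stable. Among females alone, signs reversed for Cd68 (-0.055), Csf1r (-0.047), Trem2 (-0.12), Gpnmb (-0.29), Csf2ra (-0.29), Cybb (-0.11), Kit (-0.51), Lyve1 (-0.10) and Pros1 (0.062). They also reversed there for Itgam (-0.048), Cx3cr1 (-0.037) and Mmp12 (-0.22). Leaving out 1 rat reversed the sign of Mrc1 (-0.054 to 0.35), Cd4 (-0.18 to 0.081), Csf1 (-0.24 to 0.035), Csf2ra (-0.086 to 0.41), Csf3r (-0.053 to 0.49), Kit (-0.29 to 0.33), Lyve1 (-0.030 to 0.31) and Pros1 (-0.39 to 0.0082). The same held for Cx3cr1 (-0.11 to 0.22), Elmo1 (-0.15 to 0.041) and Ocstamp (-0.43 to 0.15). Of 190 values of the markers under alternatives, 179 kept direction and side of the threshold, 6 passed it and 5 reversed. Of 1102 values of the other genes chosen by rule, printed or not, the numbers were 835, 28 and 16, and 223 no longer passed. Under the other scalings the markers kept 9 fold changes above 0, general macrophage genes 17 of 17 and genes around MERTK 0 of 13; lipid-laden genes had 18 of 21 when scaled by total counts only. The causes were not tested. Vehicle depth was lower than BAPN depth in every library, and this design cannot separate depth from treatment.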
